A study of Mus musculus and Homo sapiens with 33 samples.

Results

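Cyclins and cyclin-dependent kinases (CDKs) were followed in KPL cells, a murine lung adenocarcinoma line, in the polyadenylated RNA of 6 libraries. The 39 genes were taken by symbol from the gene families of cyclins and CDKs, together with the Cks adaptors, and all 39 were found among the 38924 Ensembl IDs of the deposited count matrix. They were sorted by known role into 14 cell-cycle, 14 transcriptional and 11 atypical members. Of these, 38 had enough reads for the test, and Cdk10 was listed at 0 in all 6 libraries. In 3 libraries the cells had received 4-hydroxytamoxifen (4-OHT) for 72 hours (the labels give the dose as 10 nm), an agent that per the labels deletes Lin9, the gene of a core subunit of the MuvB complex. The other 3 libraries, named EtOH in the sample descriptions, are the control cells of the same line without 4-OHT. The labels give no further allele, no Cre driver and no clone, and no RNA library holds 4-OHT-treated cells with intact Lin9, so an effect of the agent and an effect of the deletion cannot be told apart. Nothing in the labels says that replicates came from different cultures, and the p-values therefore cover no more than library-to-library spread, possibly technical.

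A typical CDK is a protein kinase that is inactive until a cyclin binds it. The cyclin partner sets both the time of its activity and its choice of substrates. In the cell cycle, D-type cyclins with Cdk4 or Cdk6 act in G1, E-type cyclins with Cdk2 at the entry into S phase, and cyclin A and the B-type cyclins with Cdk1 from S phase to mitosis. Another branch of the family acts mainly in transcription: Cdk7, Cdk8, Cdk9, Cdk12 and their cyclins act on RNA polymerase II and on Mediator, and Cdk11 acts with the L-type cyclins in splicing. MuvB is known for joining B-MYB to switch on genes of G2 and mitosis. With E2F4 and p130 it is known to hold cell-cycle genes silent in resting cells. It binds the CHR element, whose best-known form is TTTGAA.

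Levels are given as CPM, the reads of a gene relative to the size of the library, which was corrected by TMM factors, and a gene is called lower or higher where the quasi-likelihood test of edgeR gave an adjusted p under 0.05 over all 13355 genes tested. The libraries held 5859826 to 5913942 reads. Lin9 itself, the check of the labels, had 18.3, 18.1 and 17.1 CPM in the 4-OHT libraries, against 26.7, 21.3 and 27.3 CPM in the control libraries (log2 fold change -0.49, SE 0.11, adjusted p = 0.0011 by edgeR). Epcam and epithelial keratin, cadherin and claudin genes were fixed as markers of the labelled cell type. They summed to 6212 to 6410 CPM in the 4-OHT libraries and 6375 to 6464 CPM in the control libraries. Of the 8, 4 were lower and 0 higher, against 5.17% and 4.61% of all genes. The lower ones were Epcam (log2 fold change -0.38), Cldn7 (-0.28), Krt7 (-0.25) and Cdh1 (-0.14), while Krt8, Krt18, Krt19 and Cldn4 were not called. Of 10 alveolar type II markers, Sftpa1, Sftpc, Napsa and Slc34a2 were listed at 0 in all libraries. Long runs of neighbouring genes in this matrix have no read, so these 0 values are not taken as absence. Sftpb and Sftpd had at most 1 read in any library. The list summed to 130.1 to 141 CPM in the 4-OHT libraries and 140.2 to 143 CPM in the control libraries. Most of the sum came from Abca3 (57.0 to 61.9 CPM in 4-OHT, 57.6 to 62.8 CPM in control libraries) and Etv5 (59.7 to 68.5 and 64.4 to 66.7 CPM). The sum is therefore no measure of the surfactant genes. Fibroblast, endothelial and leukocyte markers stayed under 11 CPM as sums in every library, and whether any of these lists has a part in the results was not tested.

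Most members that fell in 4-OHT cells were cell-cycle members. Of the 14 cell-cycle members, 7 were lower (Ccnb1, Ccna2, Ccnb2, Cdk1, Cks2, Ccne1 and Ccnd2) and 0 were higher, against 5.17% of all genes tested called lower. Of the 24 tested transcriptional and atypical members, 2 were lower, Cdk8 and Ccni, which is 8.33%, and 1 was higher, Ccng2, which is 4.17%, against 4.61% of all genes called higher. The median log2 fold change was -0.11 over the cell-cycle members, -0.04 over the transcriptional members and -0.03 over the atypical members, beside 0.00 over all genes tested. Since libraries are of bulk cells, fewer cells in a phase of the cycle and less RNA per cell cannot be told apart.

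Without regard to the test, all 3 4-OHT libraries lay below all 3 control libraries for 15 of the 38 members, 9 of them cell-cycle members, against 12.2% of all genes. For 1 member, Ccnc, all 3 4-OHT libraries lay above, against 12.1% of all genes. DESeq2 called 5 members lower, all of the cell-cycle class, and 0 higher, against 2.88% and 1.65% of the genes to which it gave an adjusted p. The 5 were Ccna2, Ccnb1, Ccnb2, Cdk1 and Cks2, and none of the transcriptional and atypical members was called by DESeq2, while at an unadjusted edgeR p under 0.05 there were 5 lower and 1 higher among the 24, against 10.5% and 10.7% of all genes at that level. Of the 14 cell-cycle members 8 were lower at the unadjusted level, against the same 10.5%. By the authors' deposited table, 9 of the 38 members were lower and 1 was higher at an FDR under 0.05, the same 10 genes, against 3.89% and 3.24% of all genes of that table. That table compares the same groups, and its log2 fold changes of the members differ from those here by at most 0.0032. It is therefore no separate check of the calls.

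**Figure D1:**
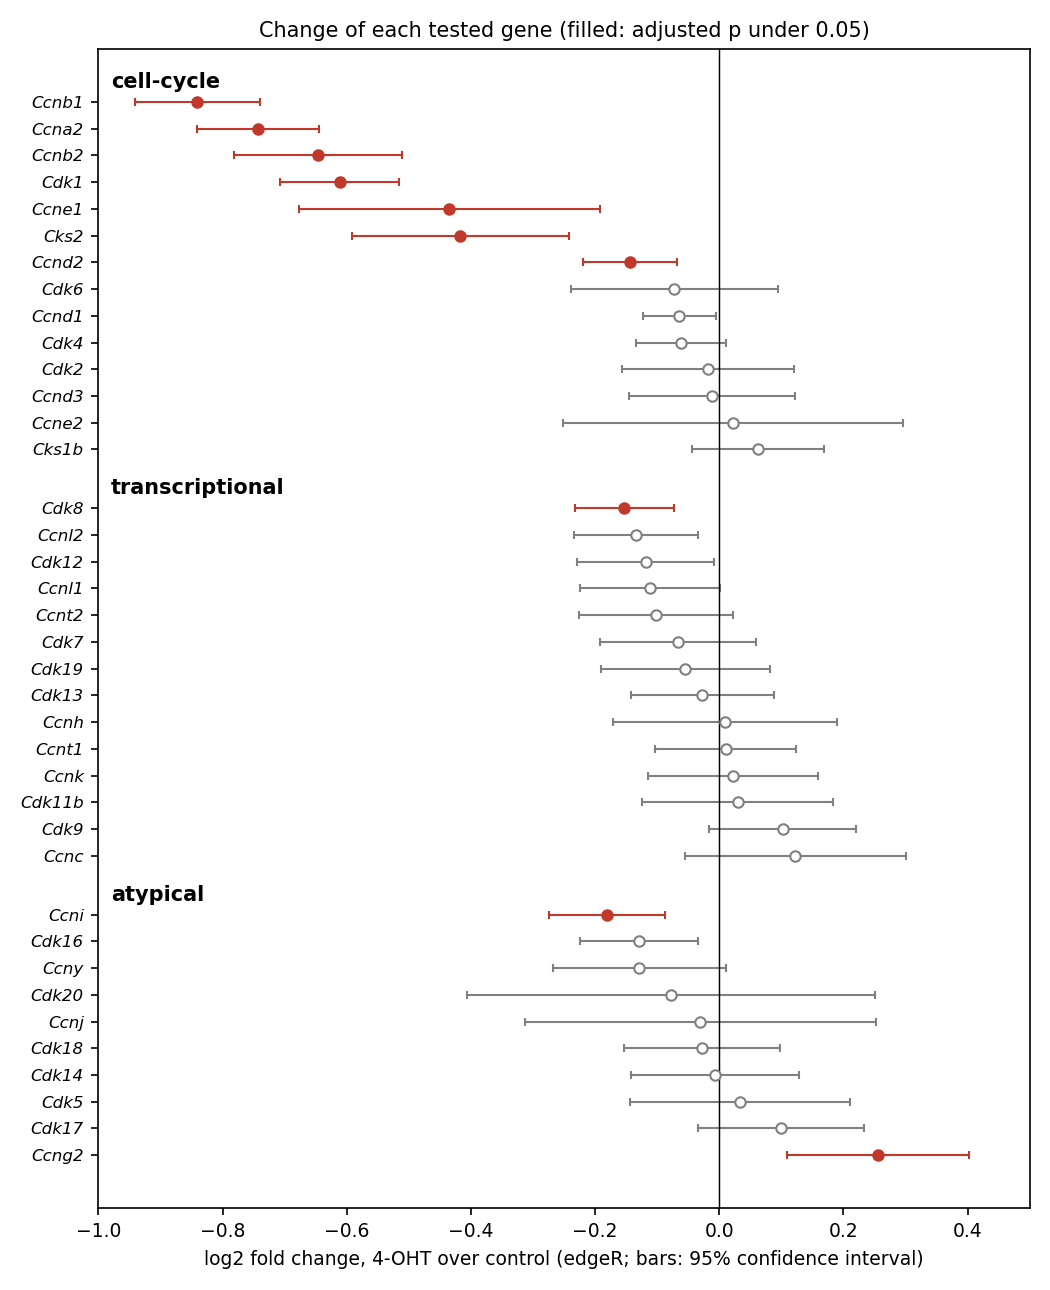
Log2 fold change of 4-OHT over control for the 38 tested members by class, with 95% confidence intervals from edgeR; filled points have an adjusted p under 0.05. The 4 genes farthest left are the mitotic cyclins and Cdk1, from -0.84 to -0.61, and 1 filled point, Ccng2 at 0.26, lies to the right of 0.

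The mitotic cyclins and their kinase fell to between 55.8% and 65.4% of the control level. Cyclin B1 gives Cdk1 its activity at the entry into mitosis. Its gene Ccnb1 (ENSMUSG00000041431, chromosome 13, 100778739 to 100786486 in GRCm38.p6) had 85.3, 82.8 and 84.9 CPM in the 4-OHT libraries, against 151, 149 and 152 CPM in the control libraries. Its mean was 84.3 ± 1.32 CPM in 4-OHT and 151 ± 1.51 CPM in control libraries (SD, n = 3 each), which is 55.8% of the control (log2 fold change -0.84, SE 0.05, adjusted p = 1.9e-25 by edgeR). All of the 4-OHT libraries lay far below the lowest control library, with little spread within either group. When the null hypothesis was set at a 1.5-fold change, which 0.337% of all genes passed as lower, Ccnb1 passed (edgeR adjusted p = 1.1e-04) and no other member did.

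Cyclin A2 partners Cdk2 in S phase and Cdk1 later, and Ccna2 (ENSMUSG00000027715, chromosome 3, 36564865 to 36573038) had 101, 91.6 and 98.6 CPM in the 4-OHT libraries, against 166, 163 and 159 CPM in the control libraries. It fell to 59.7% of the control level (log2 fold change -0.74, SE 0.05, adjusted p = 6.7e-23 by edgeR), and against the 1.5-fold null hypothesis its edgeR adjusted p was 0.0527. The RefSeq span of Ccna2 overlaps that of Exosc9, a subunit of the RNA exosome, which had 39.2, 39.3 and 41.2 CPM in the 4-OHT libraries, against 38.7, 38.0 and 36.5 CPM in the control libraries, and was not called (edgeR adjusted p = 0.645). Cdk1 (ENSMUSG00000019942, chromosome 10, 69335146 to 69352912), the kinase that drives mitosis, had 116, 115 and 109 CPM in the 4-OHT libraries, against 181, 163 and 175 CPM in the control libraries, a fall to 65.4% (log2 fold change -0.61, SE 0.05, adjusted p = 8.7e-19 by edgeR). Cyclin B2, a close relative of cyclin B1 that acts largely at the Golgi, showed the same separation of the groups: Ccnb2 (ENSMUSG00000032218, chromosome 9, 70407689 to 70421554) had 45.4, 44.0 and 46.5 CPM in the 4-OHT libraries, against 69.2, 70.8 and 73.0 CPM in the control libraries (log2 fold change -0.65, SE 0.07, adjusted p = 9.6e-13 by edgeR). For these 4 genes the call held when any single library was left out.

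**Figure D2:**
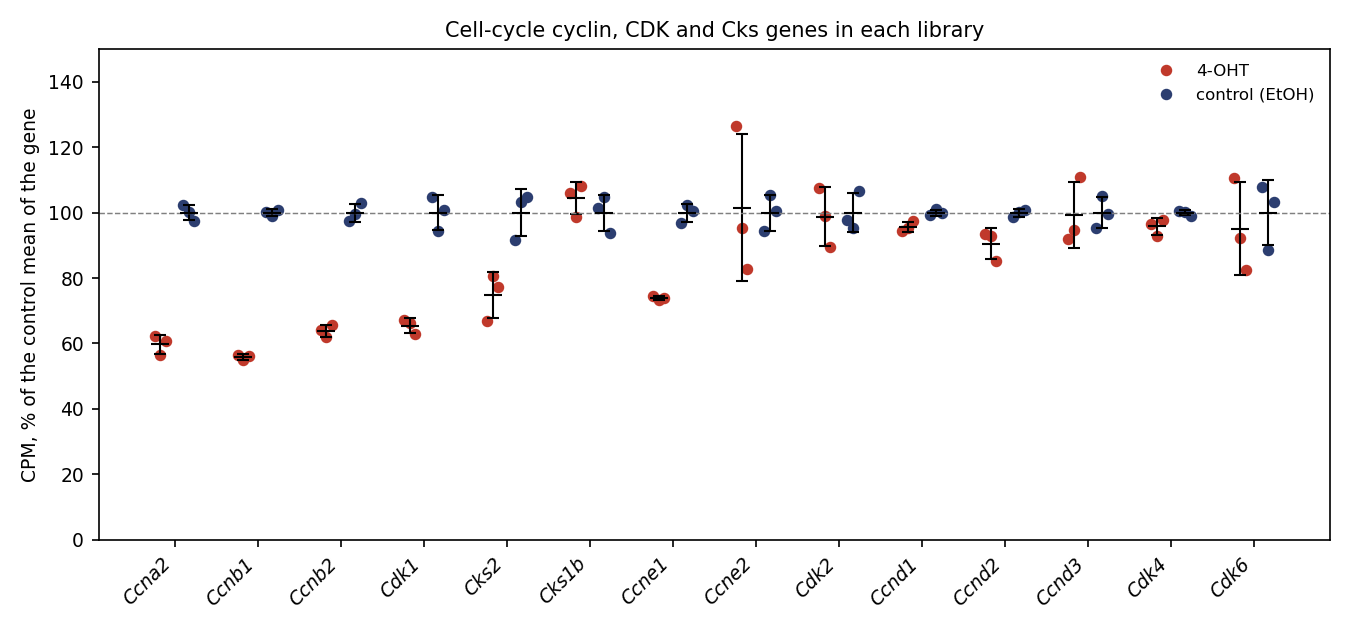
CPM of the 14 cell-cycle members as a percentage of the control mean of the gene, with 4-OHT libraries left of control libraries for each gene; points are libraries, bars are the mean and SD of 3, and the dashed line is the control mean. The 4-OHT means of Ccnb1, Ccna2, Ccnb2 and Cdk1 lie between 55.8% and 65.4%, and the groups overlap for Cdk2, Cdk6, Ccnd3, Ccne2 and Cks1b.

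The Cks proteins are small adaptors that bind CDKs and help them to phosphorylate substrates more than once. Of the pair, Cks2 passed the test and Cks1b did not. Cks2 had 27.3, 32.9 and 31.6 CPM in the 4-OHT libraries, against 37.5, 42.2 and 42.9 CPM in the control libraries, a fall to 74.9% (log2 fold change -0.42, SE 0.09, adjusted p = 3.0e-04 by edgeR). Cks1b had 112, 104 and 114 CPM in the 4-OHT libraries, against 107, 110.1 and 98.7 CPM in the control libraries, groups that overlap, and was not called, with an interval of the log2 fold change of -0.04 to 0.17 (edgeR adjusted p = 0.567).

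The promoters of the mitotic members and of the Cks pair are shown because G2/M promoters are known for a CHR, the element that MuvB binds, placed near CCAAT boxes of the factor NF-Y. RefSeq windows of GRCm38.p6, from 250 bases before to 50 after the annotated start, were at hand for 30 members, 29 of them tested; Ccna2, Ccnd1, Ccnd2, Ccne2, Ccnh, Ccny, Cdk5, Cdk17 and Cdk19 are not among the 30. The 5 shown are printed 5′ to 3′ on the strand of the gene, with matches to the CHR letters TTTGAA and to CCAAT, on either strand, in capitals. The windows are chr13:100786437-100786736 for Ccnb1, chr9:70421505-70421804 for Ccnb2, chr10:69352863-69353162 for Cdk1, chr13:51644982-51645281 for Cks2 and chr3:89418242-89418541 for Cks1b, and Cks2 alone of these is on the plus strand.
Ccnb1: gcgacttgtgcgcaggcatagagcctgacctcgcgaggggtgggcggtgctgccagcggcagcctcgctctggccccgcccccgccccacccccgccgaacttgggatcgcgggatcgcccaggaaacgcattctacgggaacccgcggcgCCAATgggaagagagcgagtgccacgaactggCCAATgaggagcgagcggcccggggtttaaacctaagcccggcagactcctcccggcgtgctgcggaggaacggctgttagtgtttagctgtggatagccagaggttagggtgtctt
Ccnb2: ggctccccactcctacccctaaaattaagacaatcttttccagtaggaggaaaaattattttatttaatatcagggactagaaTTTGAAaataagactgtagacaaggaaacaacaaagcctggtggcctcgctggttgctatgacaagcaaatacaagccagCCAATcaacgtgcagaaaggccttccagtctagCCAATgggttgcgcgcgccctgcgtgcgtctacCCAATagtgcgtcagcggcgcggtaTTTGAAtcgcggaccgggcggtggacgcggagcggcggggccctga
Cdk1: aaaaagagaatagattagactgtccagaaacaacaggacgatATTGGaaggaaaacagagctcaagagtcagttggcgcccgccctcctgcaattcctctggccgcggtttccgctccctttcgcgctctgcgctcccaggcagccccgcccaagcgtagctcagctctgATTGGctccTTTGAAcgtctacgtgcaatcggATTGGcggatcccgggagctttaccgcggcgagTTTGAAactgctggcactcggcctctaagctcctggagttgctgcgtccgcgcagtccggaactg
Cks2: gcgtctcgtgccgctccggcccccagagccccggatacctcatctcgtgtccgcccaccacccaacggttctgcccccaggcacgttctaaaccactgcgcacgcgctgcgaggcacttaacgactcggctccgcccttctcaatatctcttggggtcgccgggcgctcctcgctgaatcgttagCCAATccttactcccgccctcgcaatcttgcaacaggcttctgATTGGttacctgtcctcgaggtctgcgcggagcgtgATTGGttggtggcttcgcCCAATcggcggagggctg
Cks1b: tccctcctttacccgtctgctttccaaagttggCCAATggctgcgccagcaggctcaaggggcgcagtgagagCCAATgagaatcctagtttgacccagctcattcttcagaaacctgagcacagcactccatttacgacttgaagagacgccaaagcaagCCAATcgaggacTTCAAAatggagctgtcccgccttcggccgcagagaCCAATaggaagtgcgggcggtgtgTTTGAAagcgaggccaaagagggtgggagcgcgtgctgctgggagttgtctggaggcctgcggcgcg

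Only the CHR letters TTTGAA were searched, so a window without them may hold another form of the element. Ccnb1, with the lowest log2 fold change of the 38 tested members, has no TTTGAA in this window. It has CCAAT at -99 and -67, 32 bases apart, counted from the start. Ccnb2 has CHR letters at -167 and 5, and 3 CCAAT matches at -87, -54 and -21, spaced by 33 and 33 bases. Cdk1 has CHR letters at -71 and -15, with CCAAT on the minus strand at -80 and -48, again 32 bases apart, and 1 more at -208. Cks2 has no CHR letters and 4 CCAAT matches. Cks1b, which was not called, has CHR letters at -77 and -17 and 4 CCAAT matches, so a window with both motifs stood beside a level that did not pass the test.

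Over all 32851 RefSeq windows of this length, 17.9% hold the CHR letters, 37.4% a CCAAT and 11.7% at least 2 of them, and 2.09% hold CHR letters with at least 2 CCAAT. Among the 10 cell-cycle members with a window, 3 hold CHR letters (Ccnb2, Cdk1 and Cks1b), 7 a CCAAT and 5 at least 2. Among the 19 tested transcriptional and atypical members with a window, 2 hold CHR letters, 8 a CCAAT and 4 at least 2. Those with CHR letters are Ccni, called lower, with 2 CHR matches and no CCAAT, and Cdk16, not called, with 1 CHR match and 3 CCAAT in 1 of its 2 windows. The letters of an E2F site (TTTCCCGC, TTTGGCGC, TTTCGCGC or TTTGCCGC), which 2.26% of all windows hold, were in 2 of the cell-cycle windows and 0 of the others. The MYB letters TAACNG or CAACNG were in 5 of 10 and 7 of 19, against 49.7% of all windows. A match is letters in a window and does not show a bound site, and the windows are too few for a comparison with the calls.

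**Figure D3:**
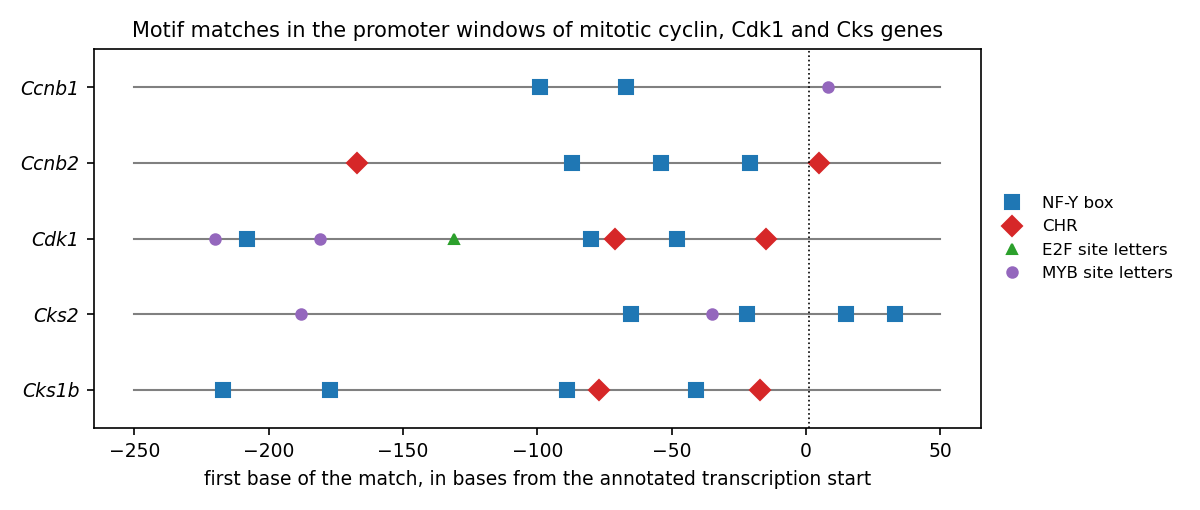
Positions of motif matches in 5 promoter windows, in bases from the annotated start (dotted line), on either strand. Ccnb1 and Cks2 hold CCAAT (NF-Y box) matches without TTTGAA, the only CHR form searched, and Ccnb2, Cdk1 and Cks1b hold both.

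Of the 8 G1 and G1/S members, 2 were lower, 25.0%, and 0 higher, against 5.17% and 4.61% of all genes. Their median log2 fold change was -0.06, and DESeq2 called 0 of them in either direction. The D-type cyclins link growth signals to Cdk4 and Cdk6. Ccnd2 fell to 90.5% of the control level: it had 267, 265 and 243 CPM in the 4-OHT libraries, against 282, 286 and 288 CPM in the control libraries (log2 fold change -0.14, SE 0.04, adjusted p = 0.0059 by edgeR). The groups do not overlap, the third 4-OHT library is the lowest, and without that library the edgeR adjusted p was 0.0915; DESeq2 gave 0.076. Ccnd1 had 838, 846 and 865 CPM in the 4-OHT libraries, against 881, 897 and 887 CPM in the control libraries, a non-overlapping but small difference that was not called (log2 fold change -0.06, interval -0.12 to -0.01, edgeR adjusted p = 0.183). Ccnd3 had 59.3, 61.1 and 71.4 CPM in the 4-OHT libraries, against 61.4, 67.7 and 64.3 CPM in the control libraries, with overlapping groups and an interval of -0.14 to 0.12, and a processed copy listed as Ccnd3-ps had 7.80 to 9.33 CPM in the 4-OHT libraries and 8.73 to 11.5 CPM in the control libraries.

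Their kinases were not called. Cdk4 had 291, 279.9 and 295 CPM in the 4-OHT libraries, against 303, 302 and 298 CPM in the control libraries, below the control libraries throughout, with a log2 fold change of -0.06 (interval -0.13 to 0.01). Cdk6 had 61.4, 51.3 and 45.8 CPM in the 4-OHT libraries, against 59.9, 49.3 and 57.4 CPM in the control libraries, groups that overlap, with an interval of -0.24 to 0.09. The D-type cyclins and their kinases thus had intervals that leave out a fall of the size seen for Ccnb1, whose own interval was -0.94 to -0.74.

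The E-type cyclins, which start DNA replication with Cdk2, gave 1 call in the pair. Ccne1 had 14.8, 14.5 and 14.6 CPM in the 4-OHT libraries, against 19.2, 20.3 and 19.9 CPM in the control libraries, a fall to 74.0% of the control level (log2 fold change -0.44, SE 0.12, adjusted p = 0.0099 by edgeR). The counts behind it were low, 86 to 87 reads per 4-OHT library and 112 to 118 per control library, and DESeq2 gave an adjusted p of 0.131. Ccne2 had 18.1, 13.7 and 11.9 CPM in the 4-OHT libraries, against 13.5, 15.1 and 14.4 CPM in the control libraries. Its first 4-OHT library was the highest of the 6 and the third 4-OHT library the lowest, and the interval of -0.25 to 0.30 is wide. Cdk2 had 62.6, 57.5 and 52.1 CPM in the 4-OHT libraries, against 56.8, 55.5 and 62.0 CPM in the control libraries, with overlapping groups and an interval of -0.16 to 0.12.

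Of the transcriptional members, 1 of 14 was called lower, 7.14%, and 0 higher, against 5.17% and 4.61% of all genes. The log2 fold changes lay between -0.15 and 0.12. Among the general factors, Cdk7 and Ccnh, the kinase and cyclin that phosphorylate polymerase II in TFIIH and also activate Cdk1 and Cdk2, had log2 fold changes of -0.07 and 0.01. In P-TEFb, which releases paused polymerase, the kinase Cdk9 had 0.10 and its cyclins Ccnt1 and Ccnt2 had 0.01 and -0.10. Cdk12 and Cdk13, which with cyclin K support the transcription of long genes, had -0.12 and -0.03, and Ccnk had 0.02. The splicing-related Ccnl1, Ccnl2 and Cdk11b had -0.11, -0.13 and 0.03. Ccnl2 came nearest to a call (edgeR adjusted p = 0.078), with 116, 115 and 112 CPM in the 4-OHT libraries and 124, 119.9 and 132 CPM in the control libraries, and passed at 0.0484 when the second control library was left out.

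The call in this class was Cdk8, the kinase of the Mediator module that also holds cyclin C. Cdk8 had 688, 615 and 643 CPM in the 4-OHT libraries, against 673, 735 and 756 CPM in the control libraries (log2 fold change -0.15, SE 0.04, adjusted p = 0.0084 by edgeR). The groups overlap, since the first 4-OHT library lies above the first control library. The call was lost without the second or the third 4-OHT library (0.0700 and 0.0961) or the second or the third control library (0.0718 and 0.0652), and DESeq2 gave 0.236. Cdk19, the paralog that can take the place of Cdk8 in Mediator, had 56.8, 55.0 and 51.9 CPM in the 4-OHT libraries, against 56.3, 57.0 and 56.7 CPM in the control libraries, and was not called (log2 fold change -0.05). Ccnc had 34.3, 34.1 and 34.1 CPM in the 4-OHT libraries, against 29.6, 31.1 and 33.4 CPM in the control libraries, with every 4-OHT library above every control library, and was not called (log2 fold change 0.12, edgeR adjusted p = 0.475).

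After these values were seen, 3 other genes were set beside Cdk8 whose lowest library is the same as that of Cdk8 in each group. Lars2, the mitochondrial leucyl-tRNA synthetase whose mouse transcript carries a repeat derived from ribosomal RNA, had 1230.2, 1080.0 and 1163 CPM in the 4-OHT libraries, against 1181, 1273 and 1236 CPM in the control libraries, and was not called (log2 fold change -0.09, SE 0.03, adjusted p = 0.121 by edgeR). Jarid2, a cofactor of the Polycomb complex PRC2, had 936, 841 and 905 CPM in the 4-OHT libraries, against 986, 1053 and 1022 CPM in the control libraries, and was lower (log2 fold change -0.19, SE 0.03, adjusted p = 3.0e-06 by edgeR). Camk1d, a calmodulin-dependent kinase, had 353, 309 and 339 CPM in the 4-OHT libraries, against 319, 327 and 346 CPM in the control libraries, and was not called (log2 fold change 0.01, SE 0.04, adjusted p = 0.903 by edgeR). By that choice, in all 4 genes the second 4-OHT library is the lowest of its group and the first control library the lowest of the controls. This shared order is therefore no result, and the share of all genes that have it was not counted. Whether what these genes share has a part in the Cdk8 result was not tested.

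**Figure D4:**
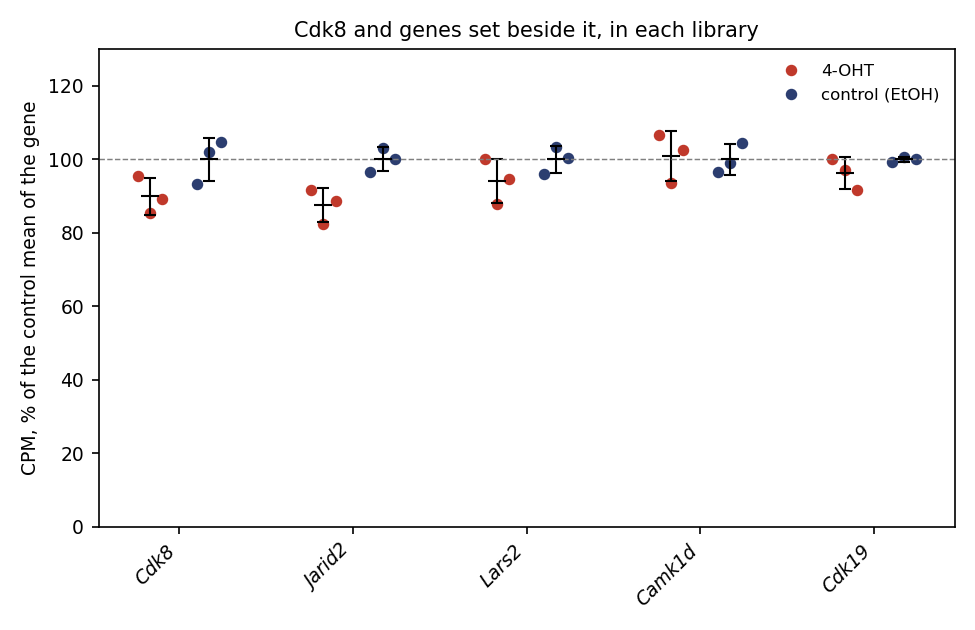
CPM of Cdk8, its paralog Cdk19 and 3 genes chosen after their values were seen, as a percentage of the control mean of the gene, with 4-OHT libraries left of control libraries and in replicate order; bars are the mean and SD of 3. By that choice, the second 4-OHT library is the lowest of its group for Jarid2, Lars2 and Camk1d, as for Cdk8. For Cdk19 the third is the lowest.

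The atypical members, cyclins and CDKs with roles outside the core cycle, gave 1 call in each direction among the 10 tested. That is 10.0% each, against 5.17% of all genes called lower and 4.61% called higher. Ccni, cyclin I, which in mouse podocytes activates Cdk5, was lower: it had 133, 138 and 140.4 CPM in the 4-OHT libraries, against 159, 161 and 146 CPM in the control libraries (log2 fold change -0.18, SE 0.05, adjusted p = 0.0043 by edgeR). The groups do not overlap, but without the first control library the edgeR adjusted p was 0.0566, and DESeq2 gave 0.075. Ccng2, cyclin G2, known for high levels in cells that leave the cycle, was the member that rose: it had 58.5, 58.5 and 51.6 CPM in the 4-OHT libraries, against 43.8, 51.9 and 45.6 CPM in the control libraries (log2 fold change 0.26, SE 0.07, adjusted p = 0.013 by edgeR). The groups overlap by a small margin, since the third 4-OHT library is just below the second control library. That call was lost without the first or the second 4-OHT library (0.0718 and 0.0989) or the first or the third control library (0.136 and 0.0805), and DESeq2 gave 0.187. Ccni and Ccng2 lie 61.1 kb apart on chromosome 5 with 1 protein-coding gene between them, and moved in opposite directions.

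The other 8 tested atypical members had log2 fold changes from -0.13 to 0.10. Cdk16, a PCTAIRE kinase that cyclin Y activates, had 136, 131 and 125 CPM in the 4-OHT libraries, against 144, 142 and 143 CPM in the control libraries, groups that do not overlap, and was not called (edgeR adjusted p = 0.070), but passed at 0.0455 when the first 4-OHT library was left out. Ccny had 51.9, 50.1 and 52.4 CPM in the 4-OHT libraries, against 56.3, 59.1 and 53.5 CPM in the control libraries, also without overlap and not called (edgeR adjusted p = 0.285). The other PCTAIRE kinases, Cdk17 and Cdk18, had 0.10 and -0.03. Cdk14, a PFTAIRE kinase that also pairs with cyclin Y, had -0.01, Cdk5, the kinase best known from neurons, 0.03, Cdk20, linked to cilia, -0.08 and Ccnj, cyclin J, -0.03. Cdk20 and Ccnj were the members with the fewest reads and intervals of -0.41 to 0.25 and -0.31 to 0.25. Cdk10, the partner of cyclin M, was listed at 0, as were the 72 consecutive protein-coding genes of chromosome 8 from Usp10 to Galnt2 among which it lies, Rpl13 included, a ribosomal protein gene that every cell uses, so nothing is read from its 0.

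Close relatives were compared by the ratio of their CPM within each library, where scaling between libraries cancels, over 14 pairs. For 8 pairs the 3 4-OHT ratios lay apart from the 3 control ratios. For these the two-sided exact permutation test gives 0.1, the smallest p that 3 against 3 allows, and 0.175 after adjustment over the 14 pairs. How many pairs of other genes lie apart was not counted, so the 8 pairs are not read as a result about relatives. A ratio also moves where 1 gene of the pair was called and the other was not, as with Cdk1 and Cdk2. Cdk1 over Cdk2 was 1.86, 1.99 and 2.09 in the 4-OHT libraries, against 3.19, 2.94 and 2.81 in the control libraries, a difference of -0.59 on the log2 scale. Cks2 over Cks1b was 0.245, 0.317 and 0.277 in the 4-OHT libraries, against 0.352, 0.384 and 0.434 in the control libraries, a difference of -0.48.

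In Ccne2 over Ccne1 the gene called lower, Ccne1, is the divisor, so its fall raises the ratio. The ratio was 1.23, 0.942 and 0.814 in the 4-OHT libraries, against 0.705, 0.746 and 0.724 in the control libraries. That is a difference of 0.44, and the 4-OHT ratios are the more scattered. The B-type cyclins fell together, and their ratio differed less: Ccnb1 over Ccnb2 was 1.88, 1.88 and 1.82 in the 4-OHT libraries, against 2.19, 2.11 and 2.09 in the control libraries, a difference of -0.19. The remaining separated pairs were Ccnd1 over Ccnd2 (0.08), Ccnt1 over Ccnt2 (0.11), Cdk16 over Cdk17 (-0.23) and Cdk16 over Cdk18 (-0.10). The ratios of Ccnd1 to Ccnd3, Cdk4 to Cdk6, Cdk8 to Cdk19, Cdk12 to Cdk13, Ccnl1 to Ccnl2 and Cdk17 to Cdk18 overlapped between the groups.

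**Figure D5:**
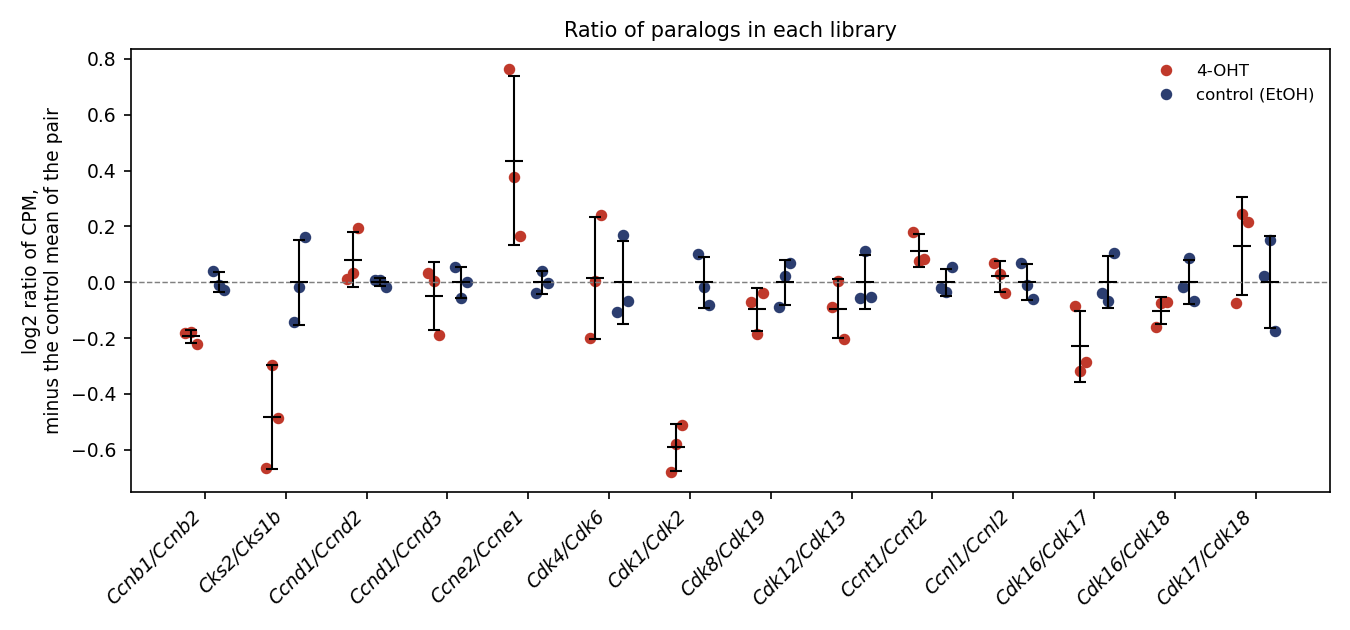
Log2 ratio of the CPM of close relatives in each library, minus the control mean of the pair, with 4-OHT libraries left of control libraries; bars are the mean and SD of 3. Cdk1 over Cdk2 and Cks2 over Cks1b lie lower in all 3 4-OHT libraries. Ccne2 over Ccne1, with the gene called lower as the divisor, lies higher.

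The genes that surround cyclins and CDKs, a list of 65 partners, inhibitors, activators and degradation factors, held 49 tested genes, of which 11 were lower, 22.4%, and 0 higher, against the same 5.17% and 4.61% of all genes. At an unadjusted edgeR p under 0.05 there were 14 lower and 2 higher of the 49, against 10.5% and 10.7% of all genes. DESeq2 and limma-voom each called 10 lower and 0 higher, where limma-voom called 5.05% of all genes lower and 4.28% higher. Ccnf, cyclin F, a cyclin that works as a substrate receptor of ubiquitin ligase and not with a CDK, had 31.5, 29.7 and 28.5 CPM in the 4-OHT libraries, against 72.6, 68.7 and 66.8 CPM in the control libraries (log2 fold change -1.21, SE 0.08, adjusted p = 2.2e-24 by edgeR). The phosphatases Cdc25b (-0.76) and Cdc25c (-0.60), which activate Cdk1, were lower, as was Wee1 (-0.60), a kinase that inhibits it. The other 2 tested genes of that group, the phosphatase Cdc25a (-0.01, edgeR adjusted p = 0.959) and the Cdk1-inhibiting kinase Pkmyt1 (0.02, edgeR adjusted p = 0.951), were not called. Cdc20 (-1.17) and Fzr1 (-0.65), which direct the anaphase-promoting complex to cyclins, and Fbxo5 (-0.55), an inhibitor of that complex, were lower too.

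Among the inhibitors, 4 of 8 tested were lower. Cdkn3, a phosphatase that acts on CDKs, had 5.77, 5.06 and 5.09 CPM in the 4-OHT libraries, against 12.7, 15.5 and 14.6 CPM in the control libraries (log2 fold change -1.42, SE 0.17, adjusted p = 1.5e-10 by edgeR). The Cdk4 and Cdk6 inhibitors Cdkn2c (-0.87) and Cdkn2d (-1.07) were lower, and Cdkn1b, which encodes p27, was lower by a small amount (-0.18, edgeR adjusted p = 0.047), a call that held in 2 of the 6 fits without 1 library and that neither DESeq2 (0.335) nor limma-voom (0.063) made. Of the 13 tested partners of transcriptional CDKs 0 were called in either direction by edgeR, DESeq2 or limma-voom, where an unadjusted edgeR p under 0.05 gave 0 lower and 1 higher, against 10.5% and 10.7% of all genes. Of the 7 tested partners of the other CDKs 0 were called by edgeR, where the unadjusted p gave 0 lower and 1 higher, against the same shares of all genes.

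The 39 members lie on 18 chromosomes, and 3 pairs lie near each other, Ccni and Ccng2 being one of them. Cdk7 and Ccnb1 lie 47.8 kb apart on chromosome 13 with 2 protein-coding genes between them, and had log2 fold changes of -0.07 and -0.84. Cdk11b and Ccnl2, 160.0 kb apart on chromosome 4, had 0.03 and -0.13. Another RefSeq gene overlaps 22 of the members, a protein-coding one for 14 of them, and the use of strand in the counting is not given in the sources used here, so reads of such overlaps cannot be told apart.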

How the data were processed

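RNA-seq of KPL cells gave 6 of the 33 samples (3 with 4-OHT and 3 controls), all used; 27 ChIP-seq samples were not analysed here. The deposited matrix holds the authors' raw read counts per Ensembl gene, not normalised. The authors' deposited comparison table holds log2 values (log2 fold change) and the p-value and FDR per gene, per the file headers. The submitters' processing notes name, without roles, the builds mm10, GRCm38.p6, GRCh37 and hg19 and the tools edgeR, bedtools 2.26.0, TopHat2 2.1.0, Bowtie2 and Bowtie 1.1.2. How reads were assigned to genes (program, annotation, strand) is not given in the sources used here.

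Of 38951 lines, 27 repeats of an ID (0.109% of reads) were dropped. Counts were filtered with filterByExpr (minimum count 10, minimum total 15), scaled by TMM and compared by the robust quasi-likelihood test of edgeR 4.0.16 (R 4.3.3), two-sided, without a replicate block, with Benjamini-Hochberg adjustment over 13355 genes and a threshold of 0.05. The test was tried on simulated counts with known changes. Library totals of 5859826 to 5913942 reads give similar precision in each library. Replicates of a group differed beyond sampling noise (chi-square of 1.26 to 1.48 per degree of freedom), so none were merged.

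Alternatives were other scalings, other filters, DESeq2 1.42.0, limma-voom (limma 3.58.1), a 1.5-fold null hypothesis, a replicate block, leaving out each library, and a prior count of 2 for the ratios. Ratios of relatives were compared by two-sided exact permutation. Promoter windows of 300 bases are from RefSeq for GRCm38.p6.

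The members, classes, gene lists and tests were chosen with earlier results of these data known. All 39 members are named. Values in every library are given for cell-cycle members and for other members with an adjusted p under 0.05. Pathway genes are named where called, and uncalled ones also among the CDK inhibitors, phosphatases and inhibitory kinases. Values of Cdk16, Ccny, Ccnc, Ccnl2, Cdk19, Exosc9, Ccnd3-ps and the 3 genes beside Cdk8 were added after they were seen.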

Additional observations from a re-analysis of the deposited data

How the results depend on the processing

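DESeq2 called 5 members lower and 0 higher, with 0 transcriptional lower, 0 atypical lower and 0 atypical higher. Against a 1.5-fold null hypothesis 1 member was lower and 0 higher, the 1 being of the cell-cycle class, with 0 transcriptional, 0 atypical lower and 0 atypical higher, and the surrounding list held 3 lower genes. Over the fits without 1 library, members lower ranged from 7 to 10, members higher from 0 to 1, transcriptional members lower from 0 to 1, atypical members lower from 0 to 2 and higher from 0 to 1. The median log2 fold change ranged from -0.18 to -0.10 in the cell-cycle class, from -0.069 to -0.019 in the transcriptional class and from -0.071 to -0.0063 in the atypical class. With Cdk7 and Ccnh moved to the cell-cycle class its median was -0.070, against -0.11, and 7 of its members were lower as before. The causes were not tested. With a prior count of 2 or without any 1 library, no paralog ratio moved from its reported value by more than the spread between libraries. Among the single members, 24 values lost the call under an alternative, 2 gained it and 0 called values changed sign, while 13 uncalled members with an absolute log2 fold change of at most 0.077 changed sign.

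The replicate numbers were not found to pair the libraries: same-numbered libraries had correlations of 0.0364, 0.0323 and -0.0617, and not every library correlated best with its own number. With the replicate block 9 members were lower and 1 higher, as without it, 10 genes of the surrounding list were lower (Cdkn1b had an edgeR adjusted p of 0.0574), and 1244 genes were called in all, against 1307 without the block.

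The depth of these libraries limits what can be said of Ccne1, Ccne2, Ccnj and Cdk20, whose intervals are wide.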

Other observations

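Runs of neighbouring protein-coding genes without a read were not limited to the surroundings of Cdk10: the longest run held 76 genes on chromosome 2, 58 on chromosome 10 and 56 on chromosome 9. The genes next to the run of Cdk10, Klhl36 and Pgbd5, had 25 and 14 reads over the 6 libraries. Of the degradation factors of cyclins, Fbxw7 and Skp1a were listed at 0 as well.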
